A study of Mus musculus with 4 samples.

Results

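Genes of cell-cell junctions, 9 of the 29179 genes in the deposited table, were followed across 4 RNA-sequencing libraries. They were chosen by name: the cadherins Cdh1, Cdh2, Cdh3 and Cdh11, the cadherin-bound β-catenin gene Ctnnb1, and the tight junction genes Cldn15, Ocln and Tjp1. Marveld1, whose protein shares the MARVEL domain of occludin, was grouped with the tight junction genes. All 9 were found, and all passed the minimum used for comparison, at least 1 RPM (a read count scaled to the library total) in some library, as did 15274 genes in all. The cells were YAMC cells, a conditionally immortalised mouse line of passages 10 to 12 that the labels call colonocytes. They received control siRNA or Sirt6 siRNA at 50 nM, both by lipofection, and from 48 h after transfection were kept for 24 h in medium alone or with TNF at 100 ng/mL. The 4 groups have 1 library each, named here control-medium, control-TNF, Sirt6-medium and Sirt6-TNF after the siRNA and the last treatment, and values are listed in this order. All 4 had grown at 33 °C with interferon-γ and were moved to 37 °C without it 24 h after transfection.

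Cadherins are calcium-dependent adhesion proteins that join like cells at adherens junctions, and β-catenin and α-catenin link their tails to actin. E-cadherin (Cdh1) is typical of epithelium and N-cadherin (Cdh2) of mesenchymal, neural and mesothelial cells. Tight junctions seal the space between epithelial cells: claudins form the barrier or its ion channels, occludin and related MARVEL proteins organise the strands, and ZO-1 (Tjp1) anchors them to actin. Inflammatory cytokines, TNF among them, are known to loosen the tight junctions of gut epithelium.

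Libraries held between 18793708 and 23749380 gene-assigned reads. With 1 library a group there is no replicate error, so each difference compares 2 libraries and not 2 conditions, and no test over replicates is given. Intervals are 95% intervals of counting error alone. Sirt6, the targeted gene, had 388 reads in the control-medium library, 352 in control-TNF, 171 in Sirt6-medium and 150 in Sirt6-TNF, and was 2.39-fold lower with its siRNA in medium and 2.65-fold lower with TNF. In every library genes with 2 reads (845 to 899) outnumbered those with 1 read (749 to 799), and genes with 4 reads outnumbered those with 3. The sources used here do not say whether both ends of a fragment were counted; if they were, fragments are fewer than the reads given and every interval printed here is too narrow. Intervals were therefore also computed from each count multiplied by 0.5, a choice made after the data were seen.

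The label of colonocytes was set against marker genes. Of 15 epithelial and colonocyte markers, 5 passed the minimum. Keratin genes Krt8, Krt18 and Krt19 were high (257, 311 and 313 normalised RPM per kb of transcript on average, with 29.7% of the 50-base sequences of Krt8 shared with other genes), but Cdx1, a regulator of intestinal identity, had no read in any library, the epithelial adhesion gene Epcam had 0, 0, 0 and 2, and the intestinal cadherin Cdh17 had 0, 0, 1 and 0. All 9 mesothelial markers passed, at 7.04 to 498 normalised RPM per kb, with mesothelin (Msln) at 245 and the transcription factor Wt1 at 70.5. Krt7 and Krt19 stand in both of these lists, and Cldn15 in the mesothelial one. Of 12 fibroblast markers 10 passed, led by vimentin (Vim, 869), fibronectin (Fn1, 611) and type I collagen (Col1a1, 513). Of 8 smooth muscle markers 6 passed, of 8 endothelial and 8 immune markers 4 each, and of 7 of neurons and glia 3, with summed levels of 437 to 601, 49.1 to 56.7, 27.1 to 42.5 and 6.28 to 9.15 normalised RPM. The colonocyte marker Slc26a3 passed the minimum, with 22, 15, 15 and 24 reads, or 0.303 normalised RPM per kb on average. Cdx1, Epcam and Cdh17 were thus at or near 0 and Slc26a3 was low, and the cells are called by their line name here.

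**Figure D1:**
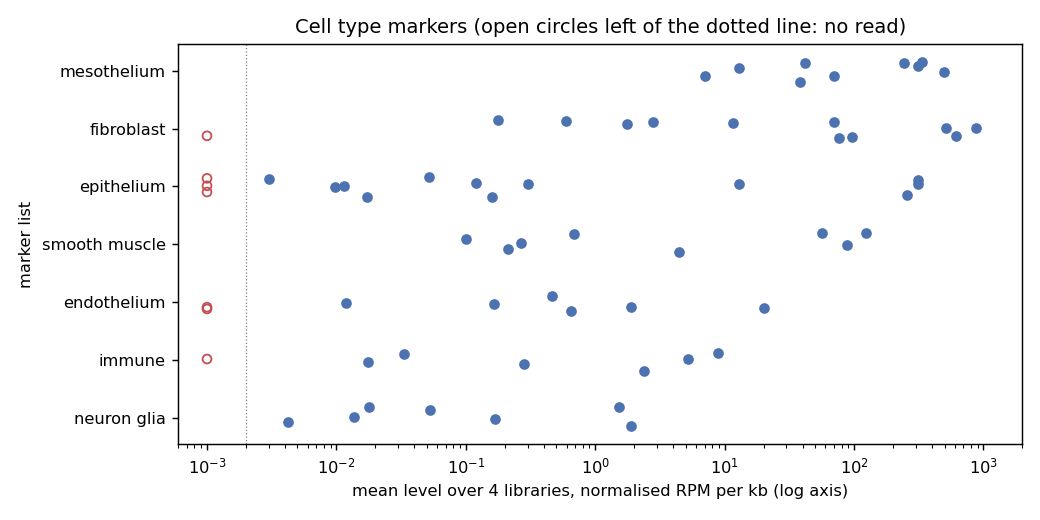
Levels of cell type markers, 1 point per gene, as the mean over the 4 libraries in normalised RPM per kb of transcript on a log axis; open circles are genes with no read. All 9 mesothelial markers lie at 7.04 or above, while the epithelial list runs from no read to keratins at 257 to 313.

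Per kb of the longest protein-coding transcript, β-catenin was the most abundant of the 9 at 147 normalised RPM per kb on average over the libraries. N-cadherin followed at 86.1, then P-cadherin (Cdh3) at 45.9, claudin-15 (Cldn15) at 41.7, cadherin-11 (Cdh11) at 25.8, ZO-1 (Tjp1) at 22.4, Marveld1 at 17.3, E-cadherin at 2.71 and occludin (Ocln) at 0.215. Over the 4 libraries the level per kb of Cldn15 ran from 25.0 to 60.9 and that of Cdh3 from 31.4 to 62.7, so the ranges overlapped although Cdh3 was above Cldn15 in each library. Cdh11, at 21.3 to 31.2, was below Cldn15 in the medium libraries and above it in the TNF libraries, and below Tjp1, at 20.9 to 24.5, in the medium libraries only. Marveld1, at 14.0 to 20.5, did not reach Tjp1. E-cadherin and occludin lay below all others in every library. Per kb of coding sequence Marveld1 moved up to rank 3 at 125, its transcript of 3755 bases holding 519 of coding sequence.

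**Figure D2:**
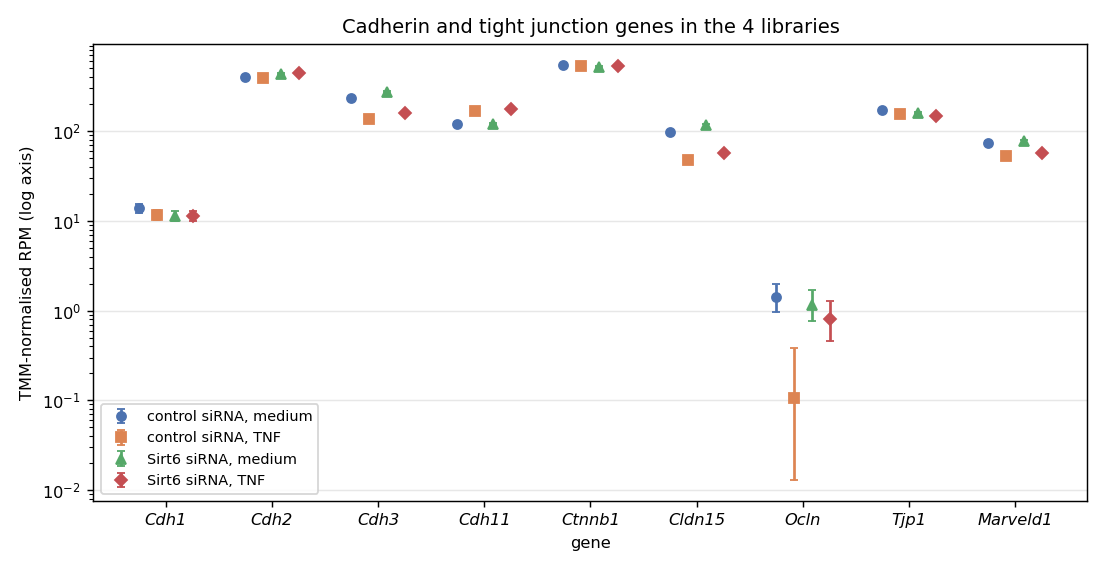
TMM-normalised RPM of the 9 genes in each library on a log axis, with exact Poisson 95% intervals, many of them smaller than the symbol; levels should be compared within a gene only, since length is not taken into account. Cldn15, Cdh3 and Marveld1 are lower and Cdh11 is higher in both TNF libraries, and Ocln lies near 1 RPM or below.

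The cadherin transcripts were led by N-cadherin (ENSMUSG00000024304), whose level hardly differed between libraries. It had 397 normalised RPM in the control-medium library, 396 in control-TNF, 431 in Sirt6-medium and 443 in Sirt6-TNF. Both Sirt6 siRNA libraries stood above both control ones, and the TNF ratio was close to none under either siRNA (log2 -0.01 and 0.04). E-cadherin (ENSMUSG00000000303) was read thinly, with 312, 218, 273 and 241 reads, or 13.8, 11.6, 11.4 and 11.3 normalised RPM. The control-medium library was the highest of the 4, and the counting intervals of all 4 overlapped. Its TNF log2 ratio was -0.24 (-0.50 to 0.01) with control siRNA and -0.01 (-0.26 to 0.25) with Sirt6 siRNA. Within each library there were 28.8 to 39.3 reads of Cdh2 for each read of Cdh1.

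P-cadherin (ENSMUSG00000061048), a classical cadherin of basal epithelial layers, was lower in both TNF libraries. It had 236 normalised RPM in control-medium against 137 in control-TNF, and 275 in Sirt6-medium against 157 in Sirt6-TNF. Each TNF library lay below each medium library, by 1.72-fold with control siRNA (log2 -0.78, -0.85 to -0.71) and 1.75-fold with Sirt6 siRNA (log2 -0.80, -0.87 to -0.75). Cadherin-11 (ENSMUSG00000031673), known from mesenchymal and synovial cells, stood the other way. It had 121 normalised RPM in control-medium, 166 in control-TNF, 120 in Sirt6-medium and 176 in Sirt6-TNF, or 1.37-fold and 1.47-fold more with TNF (log2 0.45, 0.38 to 0.52, and 0.55, 0.48 to 0.62). Both ratios fall short of 2, the size at which a difference is called here, although their counting intervals leave out 1.

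Read ratios within a library, where scaling between libraries plays no part, restate these levels. Against Cdh2, reads of Cdh3 went from 0.594 to 0.347 with TNF under control siRNA and from 0.637 to 0.355 under Sirt6 siRNA, and reads of Cdh11 from 0.306 to 0.419 and from 0.279 to 0.397. There were 0.514 reads of Cdh11 for each read of Cdh3 in control-medium and 1.21 in control-TNF, a 2.35-fold change (log2 1.23, 1.13 to 1.33). With Sirt6 siRNA the ratio went from 0.437 to 1.12, a 2.56-fold change (log2 1.36, 1.26 to 1.45). Cdh3 thus outnumbered Cdh11 in both medium libraries and was outnumbered by it in both TNF libraries. Of the summed level per kb of the 4 cadherins, Cdh3 made up 33.6% and 35.7% in medium and 21.6% and 22.3% with TNF, and Cdh11 13.4% and 12.1% in medium and 20.2% and 19.4% with TNF, for control and Sirt6 siRNA in turn. Cdh2 held 50.7% to 56.8% and Cdh1 1.46% to 1.94%. In bulk RNA, fewer cells that carry a transcript and less of it per cell cannot be told apart.

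**Figure D3:**
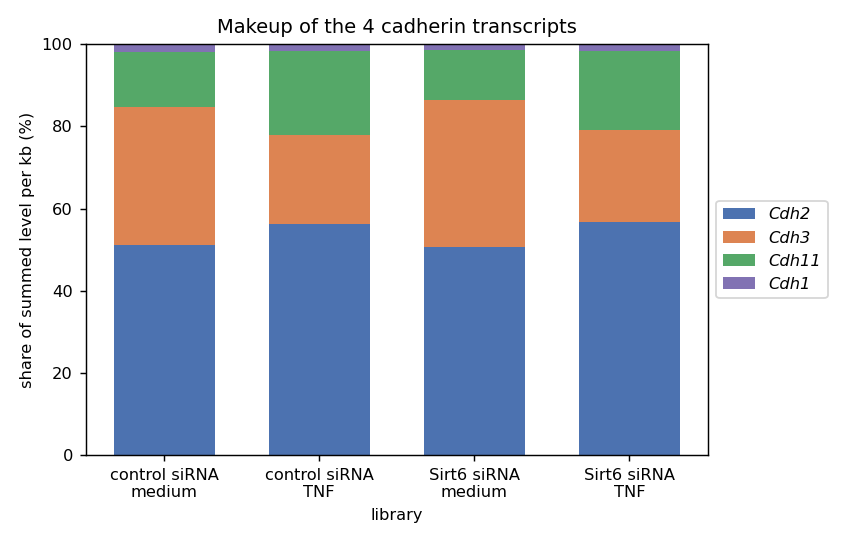
Share of each cadherin in the summed level per kb of the 4 cadherins, in percent, 1 bar per library. The Cdh3 share is 33.6% and 35.7% in the medium libraries and 21.6% and 22.3% in the TNF libraries, while the Cdh11 share is larger with TNF and Cdh1 stays below 2%.

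β-Catenin (ENSMUSG00000006932), which also carries Wnt signals to the nucleus, was level across the libraries. It had 540 normalised RPM in control-medium, 537 in control-TNF, 521 in Sirt6-medium and 528 in Sirt6-TNF, and its log2 ratios lay between -0.05 and 0.02 in the 4 comparisons. Of its 50-base sequences 12.3% also occur in transcripts of Ulk4, on either strand, so a part of its reads could belong there. Its partner α-catenin (Ctnna1) also moved little, with TNF log2 ratios of -0.10 and -0.06. Plakoglobin (Jup), the close relative of β-catenin that serves desmosomes as well, was lower in both TNF libraries. It had 5577 reads in control-medium, 2507 in control-TNF, 5656 in Sirt6-medium and 2721 in Sirt6-TNF. For each read of Ctnnb1 there were 0.456 and 0.451 reads of Jup in the medium libraries and 0.249 and 0.241 in the TNF libraries, a 1.83-fold and a 1.87-fold difference.

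Among the 4 genes of the tight junction group, claudin-15 (ENSMUSG00000001739) fell with TNF under both siRNAs. Claudin-15 forms paracellular channels for sodium in the intestine. It had 97.0 normalised RPM in control-medium and 47.5 in control-TNF, and 116 in Sirt6-medium and 56.8 in Sirt6-TNF. Both TNF libraries lay well below both medium libraries, and the 2.04-fold drop was the same to 3 digits in either pair (log2 -1.03, -1.14 to -0.92, with control siRNA, and -1.03, -1.13 to -0.93, with Sirt6 siRNA), close above the size of 2. With Sirt6 siRNA it was 1.19-fold higher in medium and 1.20-fold higher with TNF, short of the rule. Besides Cldn15 only Cldn12, at 56.6 to 75.5 normalised RPM, passed the minimum among the 23 claudin genes matched, and 9 had no read. Cldn12 was slightly higher with TNF (log2 0.24 and 0.20), so that the read ratio of Cldn15 to Cldn12 went from 1.71 to 0.709 with control siRNA and from 1.76 to 0.752 with Sirt6 siRNA. The mesothelial markers, Cldn15 among them, had a median TNF log2 ratio of -0.34 with control siRNA and -0.40 with Sirt6 siRNA, their summed level was 3901 normalised RPM in medium and 3229 with TNF under control siRNA and 4251 and 3526 under Sirt6 siRNA, and 2 of the 9, Cldn15 and Lrrn4, fell in each pair, where 1.24% and 1.49% of all genes fell. Other marker lists were lower with TNF as well: the median TNF log2 ratios with control and Sirt6 siRNA were -0.44 and -0.38 for the 5 epithelial markers, -0.59 and -0.58 for the 6 of smooth muscle and -0.22 and -0.22 for the 10 of fibroblasts, and the summed level of the epithelial list was 1849 and 1559 normalised RPM in medium and 1364 and 1222 with TNF. Of the 6 smooth muscle markers 1 fell with TNF under control siRNA and 2 under Sirt6 siRNA, Cnn1 (37 to 9 reads) and Des (25 to 7 reads). No epithelial or fibroblast marker was called in either pair. The part of these shifts in the result for Cldn15 was not tested.

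The genes whose levels over the 4 libraries followed Cldn15 most closely, among 10480 named genes with at least 100 reads on average, were Lrrn4, Sc4mol and Fgf18. Likeness was the distance between log2 levels centred on each gene's mean, and it was 0.05, 0.08 and 0.08. Lrrn4, a leucine-rich repeat gene of mesothelium, had 179, 85.1, 205 and 102 normalised RPM in the library order above. Sc4mol, a sterol demethylation enzyme of cholesterol synthesis, had 76.8, 38.0, 98.0 and 45.0, and the growth factor gene Fgf18 had 8.61, 3.90, 9.81 and 4.64. With only 4 libraries many genes can share a course.

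Marveld1 (ENSMUSG00000044345), a relative of occludin with the same membrane-spanning MARVEL domain, was lower with TNF by less. No value here places its protein at tight junctions. Marveld2, with 8, 0, 0 and 0 reads in the library order above, and Marveld3, with 11, 0, 2 and 4, stayed below the minimum. Marveld1 had 74.0 normalised RPM in control-medium and 52.4 in control-TNF, and 76.9 in Sirt6-medium and 56.9 in Sirt6-TNF. Both TNF libraries were below both medium libraries, by 1.41-fold (log2 -0.50, -0.61 to -0.38) and 1.35-fold (log2 -0.44, -0.54 to -0.33). The scaffold gene Tjp1 (ENSMUSG00000030516) had 173, 153, 158 and 148 normalised RPM in the library order above. Its TNF log2 ratios were -0.17 (-0.24 to -0.10) and -0.10 (-0.17 to -0.03), and its highest library was control-medium. Against Tjp1, reads of Cldn15 went from 0.562 to 0.310 with TNF under control siRNA and from 0.731 to 0.385 under Sirt6 siRNA.

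Occludin (ENSMUSG00000021638) was barely transcribed. It had 32 reads in control-medium, 2 in control-TNF, 28 in Sirt6-medium and 17 in Sirt6-TNF, or 1.41, 0.107, 1.16 and 0.797 normalised RPM. The control-TNF library alone stood apart, and the counting intervals of the other 3 overlapped. Occludin fell with TNF there (log2 -2.92, -6.83 to -1.76) and had a log2 ratio of -0.50 (-1.51 to 0.37) with Sirt6 siRNA, and with TNF it rose with Sirt6 siRNA (log2 2.16, 0.82 to 6.06). All of these calls turn on the library with 2 reads, and the size depends on the prior count: with 5 and 0.5 the log2 ratio was -2.28 and -3.47 for the fall and 1.61 and 2.66 for the rise. From counts multiplied by 0.5 the intervals were -9.12 to -1.04 for the fall, by a rule under which 0.923% of all genes fell, and 0.03 to 8.36 for the rise, where 0.216% rose.

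For Cldn15, Marveld1 and Ocln, the 250 bases before the start in RefSeq (GRCm38.p6) are printed in lower case, with capitals for any match to 3 motifs: TGAGTCA, bound by AP-1, CACCTG, an E-box bound by Snail and Zeb repressors, and an NF-kB consensus, all on both strands. AP-1 and NF-kB are factors that TNF activates, and these motifs were added after the sequences were seen. Claudin-15 is shown for its fall, Marveld1 and occludin as the MARVEL genes that differ from it in level and course.
Cldn15 chr5:136967619-136967868, plus strand: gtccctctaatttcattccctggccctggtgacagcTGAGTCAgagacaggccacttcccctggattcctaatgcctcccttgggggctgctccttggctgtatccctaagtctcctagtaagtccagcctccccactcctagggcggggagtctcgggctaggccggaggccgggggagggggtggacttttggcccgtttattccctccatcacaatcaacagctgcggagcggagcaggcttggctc
Marveld1 chr19:42147139-42147388, plus strand: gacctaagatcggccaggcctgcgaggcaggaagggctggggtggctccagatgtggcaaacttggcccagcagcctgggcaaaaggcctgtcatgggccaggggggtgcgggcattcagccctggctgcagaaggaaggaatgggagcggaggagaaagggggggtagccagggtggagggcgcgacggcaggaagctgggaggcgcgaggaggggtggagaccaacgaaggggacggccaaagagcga
Ocln chr13:100552719-100552968, minus strand: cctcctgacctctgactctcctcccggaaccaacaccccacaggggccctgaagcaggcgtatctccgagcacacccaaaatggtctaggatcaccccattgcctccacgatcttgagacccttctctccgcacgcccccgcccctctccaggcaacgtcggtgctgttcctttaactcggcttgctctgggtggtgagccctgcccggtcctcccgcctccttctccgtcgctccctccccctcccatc
The Cldn15 window held 1 AP-1 match, from position -214 relative to the start. Such a match was present in 4.46% of all 32851 windows of this length, an E-box in 17.2% and the NF-kB motif in 1.41%. The windows of Marveld1 and of this Ocln start held none of the 3. A start of Ocln that lies farther downstream had 2 E-boxes in its window, at -213 and -68, shown with the flanking bases:
Ocln chr13:100552694-100552723, minus strand: ccatcggagtttCAGGTGaatgggtcaccg
Ocln chr13:100552549-100552578, minus strand: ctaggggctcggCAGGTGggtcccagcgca
Of the 9 genes, 5 had an entry in the promoter table, among them Tjp1 and Ctnnb1, whose windows held none of the 3 motifs. Promoters of Cdh1, Cdh2, Cdh3 and Cdh11 were not used here.

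Counted over the 9 genes, 2 fell with TNF under control siRNA, Cldn15 and Ocln, where 1.24% of all genes fell and 2.29% rose. Under Sirt6 siRNA 1 fell, Cldn15, where 1.49% of all genes fell and 2.17% rose. A gene was called to rise or fall at a ratio of at least 2 with a counting interval that left out 1. No member was called for Sirt6 siRNA in medium, where 0.491% of all genes rose and 0.524% fell, and 1, Ocln, rose with Sirt6 siRNA under TNF, where 0.393% rose and 0.655% fell. At a ratio of 1.5, Cdh3 joined those lower with TNF under both siRNAs, where 4.46% and 5.36% of all genes were lower. The median log2 ratio of all genes was within 0.01 of 0 in each comparison.

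**Figure D4:**
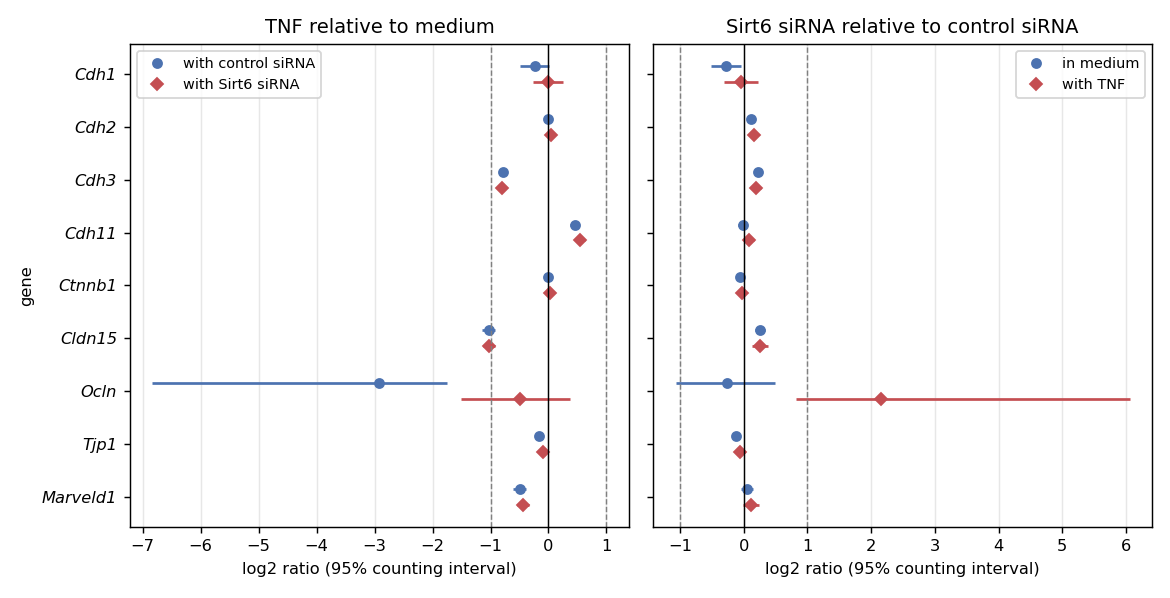
Log2 ratios of the 9 genes for TNF (left) and for Sirt6 siRNA (right) with 95% counting intervals; dashed lines mark a ratio of 2 either way. Cldn15 lies at -1.03 in both TNF comparisons, Cdh3 at -0.78 and -0.80, and the intervals of Ocln are the widest.

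Sirt6 siRNA was followed by small differences, some higher and some lower. Its log2 ratio in medium and with TNF was 0.12 and 0.16 for Cdh2, 0.22 and 0.19 for Cdh3, and 0.26 and 0.26 for Cldn15, all with counting intervals above 0. For Cdh1 it was -0.28 (-0.52 to -0.04) and -0.04 (-0.32 to 0.23), and for Cdh11, Ctnnb1, Tjp1 and Marveld1 between -0.12 and 0.12. Among the latter, intervals left out 0 for Tjp1 in medium (-0.12, -0.19 to -0.06), Ctnnb1 in medium (-0.05, -0.09 to -0.02) and Cdh11 with TNF (0.09, 0.02 to 0.16). From counts multiplied by 0.5 the intervals included 0 for Cdh1 in medium (-0.621 to 0.061) and Cdh11 with TNF (-0.011 to 0.185). Those of the other ratios described here as leaving out 0 still did so. The TNF responses under the 2 siRNAs differed by -0.02 to 0.10 on the log2 scale for all but Cdh1 (0.23, -0.12 to 0.59) and Ocln. The 0.10 was that of Cdh11, whose interval of 0.001 to 0.205 left out 0. From counts multiplied by 0.5 the Cdh11 interval was -0.041 to 0.247 and included 0. For Ocln the difference was 2.42 (0.85 to 4.94), past the rule, where 0.596% of all genes were higher and 1.08% lower. From counts multiplied by 0.5 its interval was -0.02 to 5.36 and included 0, by a rule under which 0.210% were higher. An additive edgeR quasi-likelihood model over the 4 libraries, which takes the difference between the 2 responses as its spread and pools it over genes, gave 6 of the 9 a Benjamini-Hochberg adjusted p of at most 0.05 for TNF, where 14.4% of all genes were called higher and 15.1% lower. They were Cdh11, higher, and Cdh3, Cldn15, Ocln, Tjp1 and Marveld1, lower. For Sirt6 siRNA it gave 3, Cdh2, Cdh3 and Cldn15, all higher, where 3.43% of all genes were higher and 3.16% lower. DESeq2 with the same terms gave 4 for TNF, Cdh3, Cdh11, Cldn15 and Marveld1, where 7.01% were higher and 5.33% lower, and 0 for Sirt6 siRNA, where 0.580% were higher and 0.529% lower. With 1 residual degree of freedom these models hold no replicate error.

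Wider lists of junction genes were counted by the same rule. With TNF, 3.53% of all genes were called under control siRNA and 3.66% under Sirt6 siRNA. Few or no calls in lists of this size therefore do not set junction genes apart. Of 7 desmosomal genes measured none was called in either TNF comparison. Their median TNF log2 ratio was -0.05 under control siRNA and -0.00 under Sirt6 siRNA, and the plakophilin gene Pkp4 lay at that median. Jup (log2 -0.88 both times) and desmoplakin (Dsp, log2 -0.98 both times), which tie desmosomes to keratin filaments, were lower, outside the rule, and the summed level of the desmosomal list was 443 and 383 normalised RPM in the medium libraries and 290 and 254 in the TNF libraries. Dsp had 2268, 950, 1504 and 675 reads in the library order above and was also lower with Sirt6 siRNA (log2 -0.68 in both comparisons). The desmocollin gene Dsc2 was the 1 desmosomal gene called for Sirt6 siRNA. It fell under TNF, from 28 reads to 9 (log2 -1.63, -3.10 to -0.70), where 0.655% of all genes fell. Of 16 catenins and adherens junction partners none was called (medians -0.06 and -0.06), with the actin cross-linkers Actn1 at 0.25 and 0.35 and Actn4 at -0.06 and -0.05. Of 26 tight junction partners Ocln alone was called (medians -0.08 and -0.10). The junctional adhesion molecule F11r (0.24 and 0.23) and Ybx3, a ZO-1-bound transcription factor (0.33 and 0.42), were higher, and the adhesion receptor Cxadr was lower (-0.22 and -0.23).

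**Figure D5:**
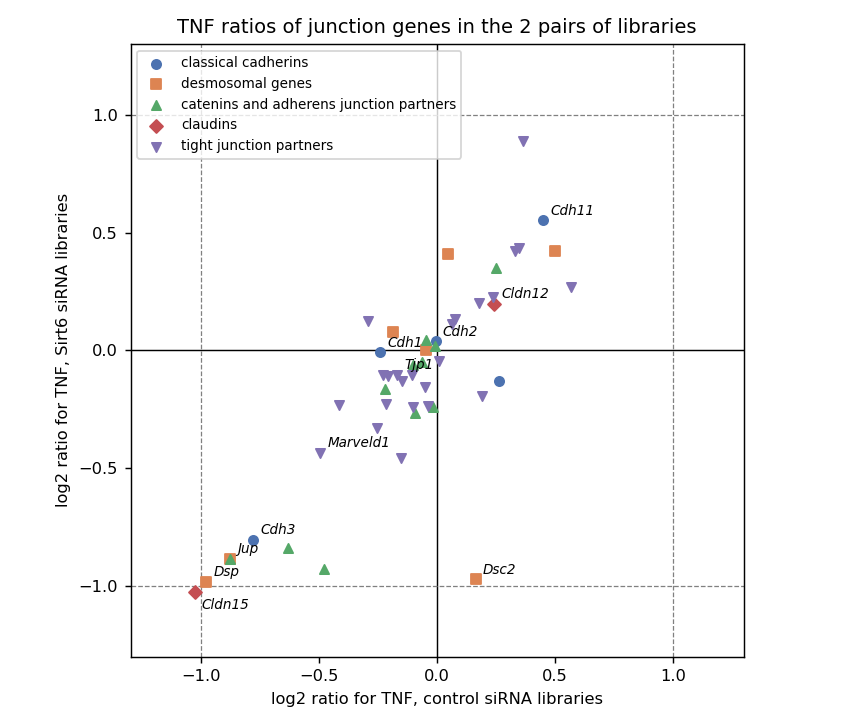
TNF log2 ratio of each measured junction gene with control siRNA (x axis) and with Sirt6 siRNA (y axis), by list; the pairs share no library, dashed lines mark a ratio of 2, and Ocln at -2.92 and -0.50 lies outside the axes. Cldn15, Dsp, Jup and Cdh3 lie together at the lower left and Cdh11 at the upper right.

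Repressors that bind E-boxes of the E-cadherin gene were transcribed at modest levels and none was called. Of all genes, 3.53% and 3.66% were called in the TNF comparisons, and 1.01% and 1.05% in those of Sirt6 siRNA. Of 8 measured, Tcf3 had 35.5 normalised RPM per kb of transcript on average, Twist1 15.9 and Snai2 8.53, and their TNF log2 ratios were -0.33 and -0.31, 0.11 and 0.11, and -0.20 and -0.23. The list median was 0.04 in both TNF comparisons and -0.03 and -0.02 for Sirt6 siRNA. The other 5 went both ways: the TNF log2 ratios were 0.60 and 0.54 for Zeb2, 0.27 and 0.61 for Snai1, 0.11 and 0.31 for Twist2, -0.03 and -0.03 for Zeb1, and -0.27 and -0.17 for Tcf4. These 5 are outside the rule for named genes and are given to complete the list.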

How the data were processed

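Messenger RNA was selected on oligo-dT beads from total RNA and sequenced from 4 cultures, per the labels' protocols. The deposited table gives whole-number read counts per gene, per the file headers, and deposited values headed RPKM that equal the count divided by the library total, to within 0.0005, and so are RPM, not used further. CASAVA, Bowtie 1.0.1 and edgeR were named, per the submitters' processing notes; build, annotation, counter and strand are not given in the sources used here. No sample column was left out. Members, lists and rules were chosen with earlier results of these data known.

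Counts were analysed in Python 3.11.15 and R 4.3.3. A gene was kept where some library reached 1 RPM, and libraries were scaled by TMM over all 4 (edgeR 4.0.16). Log2 ratios used a prior count of 2 and exact conditional binomial intervals of the read ratio; for the difference of TNF responses the interval came from the delta method after adding 0.5 to counts. Levels have exact Poisson intervals. No molecular identifiers are described, and reads that copy 1 molecule are not independent: all intervals hold counting error alone. Alternatives were other scalings, filters, prior counts, a ratio of 1.5, and additive edgeR and DESeq2 1.42.0 models (1 residual degree of freedom). Lengths and shared 50-base sequences came from GENCODE M21 transcripts. Of 206 list entries 202 were matched by identifier. All 9 members were named. Other genes were picked for naming from list genes past the rule (at most 6 a list), the 3 highest per kb in each list, and the 3 genes most like a called member with at least 100 reads on average. Not all genes so picked are described, the called smooth muscle marker Myl9 and immune marker Cd14 among them, and some marker genes outside the rule are named. The size rule and the additive models were tried on simulated counts with known folds in well-read genes. Genes read as thinly as Ocln were not among the changed ones, nor, for the size rule, were ratios close to 2. The trial therefore says nothing about the calls of Ocln and Cldn15.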

Additional observations from a re-analysis of the deposited data

Results flagged for a closer look

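The TNF response of Ocln differed between the siRNAs by 2.42 on the log2 scale, past the rule for a difference of responses, which compares single libraries and is not a test over replicates. It rests on 32, 2, 28 and 17 reads, of which the 2 belong to the control-TNF library, and the interval from counts multiplied by 0.5 included 0.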

How the results depend on the processing

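No paired analysis was possible because each group has 1 library and the labels give no replicate numbers to block on, and for the same reason no replicate could be left out. Log2 ratios of the 9 genes under the other settings numbered 310, and none changed sign where called. Only Cldn15, for TNF, and Ocln had called ratios. Counts multiplied by 0.5 alter the intervals alone, so the ratios under that setting equal those reported. The call of the Ocln difference was lost with counts multiplied by 0.5, a setting chosen after seeing the data, and library totals without TMM moved the TNF ratio with Sirt6 siRNA beyond its counting interval, and across 0, for the uncalled Cdh2 (0.04 to -0.01) and Ctnnb1 (0.02 to -0.03). With a minimum of 5 RPM, which leaves out Ocln, the members called were 1 for TNF with control siRNA, 0 for Sirt6 siRNA with TNF and 0 for the difference, and also 0 for the difference with counts multiplied by 0.5. At a ratio of 1.5 they were 2 for TNF with Sirt6 siRNA. The additive models fit 1 TNF and 1 Sirt6 siRNA effect over both pairs and call by adjusted p with no minimum ratio, so their counts are another quantity: 6 members for TNF in edgeR and 4 in DESeq2, in which Ocln has no adjusted p, and 3 and 0 for Sirt6 siRNA. By the ratio rule 1 member was called in both TNF comparisons and 0 in both of Sirt6 siRNA. Genes of all fixed lists, 192 distinct genes before the minimum, past the rule numbered 8, 7, 0 and 3 in the 4 comparisons and 1 for the difference. Of all genes kept, 3.53%, 3.66%, 1.01% and 1.05% were past it either way, and 1.68% for the difference. Without a filter the list genes past the rule were 14 for TNF with control siRNA, 4 and 5 for Sirt6 siRNA in medium and with TNF, and 4 for the difference. With a minimum of 5 RPM they were 5 and 4 for TNF with control and Sirt6 siRNA, 0 for Sirt6 siRNA with TNF and 0 for the difference, which was also 0 with counts multiplied by 0.5. The shares of all genes without a filter and at 5 RPM were not computed. At a ratio of 1.5 the list genes were 17 and 20 for TNF and 6 for Sirt6 siRNA in medium, where 9.40%, 9.78% and 3.19% of all genes were past it. Ranks per kb of coding length differed for 4 members. Prior counts of 5 and 0.5 moved the Ocln difference to 1.84 and 2.93. Where no value shows the cause of a change, the cause was not tested. Depth limits Ocln and, less so, Cdh1.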

Other observations

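Proteases that can shed cadherins were described as a further list. Of 11 measured, 2 rose with TNF under both siRNAs, where 2.29% (control siRNA) and 2.17% (Sirt6 siRNA) of all genes rose: the stromelysin gene Mmp3 (log2 1.59 and 1.80; 569, 1419, 382 and 1188 reads in the control-medium, control-TNF, Sirt6-medium and Sirt6-TNF libraries) and the gelatinase gene Mmp9 (2, 62, 2 and 90 reads; log2 4.24, 3.32 to 8.31, and 4.62, 3.77 to 8.73). The sheddase gene Adam10 had TNF log2 ratios of -0.22 and -0.18, the γ-secretase subunit gene Ncstn 0.00 and 0.01, and the calpain gene Capn2, which shares 23.5% of its 50-base sequences with another gene, -0.25 and -0.17.

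Of 15 factors of epithelial identity 6 were measured. Klf4 was the most abundant, at 169 normalised RPM on average, with TNF log2 ratios of -0.37 and -0.26, while Esrp1, Ovol2, Hnf4a and Cdx1 were among those with no read. Ehf rose with TNF under control siRNA, from 15 reads to 34 (log2 1.34, 0.54 to 2.44), where 2.29% of all genes rose. Under Sirt6 siRNA its log2 ratio was 0.44.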
